A study of Mus musculus with 11 samples.

Results

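The Notch pathway genes Notch1, Notch2, Notch3, Dll1, Dll3, Jag1, Rbpj, Hes1, Hes5 and Lfng were examined for binding of 5 TFs in mouse epiblast stem cells (EpiSCs), namely POU3F1, POU5F1, SOX2, OTX2 and ZIC2. These 10 genes, of 22367 protein-coding genes in the mm9 annotation, were chosen by name, and a peak was assigned to a gene when its midpoint lay in the gene body or within 50 kb of either end. By this rule, 743 of the 1004445 peaks in the 10 lists belonged to the genes, 383 from EpiSCs and 360 from activin-free EpiSCs. ChIP-seq had been done on EpiSCs of the 129/Sv strain, cultured without feeders in medium containing 10 ng/ml Fgf2 and either 20 ng/ml activin (EpiSC) or no activin for the last 18 h (activin-free). In both cultures, a TF carrying the BLRP peptide was expressed together with the biotin ligase BirA from a transiently transfected pCAGGS plasmid, and chromatin was recovered with streptavidin. The tagged TF was therefore present in addition to the endogenous TF in each library, and the cells were a transfected population rather than a clone. There was 1 library for each TF in each culture, so no difference between libraries had a replicate check and no p-value is given.

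Notch receptors are cleaved after contact with a Delta or Jagged ligand on a neighbouring cell, and the released intracellular domain enters the nucleus, where it binds the DNA-binding protein RBPJ and activates target genes of the Hes and Hey families. The pathway is known for holding neural progenitors undifferentiated and for the segmentation of the paraxial mesoderm, both of which derive from the epiblast that EpiSCs represent. ZIC2 is a zinc finger protein, OTX2 a homeodomain protein, SOX2 an HMG box protein, and POU5F1 and POU3F1 are POU domain proteins.

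The sequences below are shown because they are the places in the windows of these genes where peaks of several TFs shared bases, or the promoters of the direct target genes. A site was a run of overlapping peaks of 1 culture, and the bases given are the 200 centred on the stretch shared by most of its peaks, in mm9, on the plus strand from 5′ to 3′. A rule took, for each gene, the EpiSC site with peaks of most TFs, from 3, and chose sites at Notch1, Notch2, Dll1, Dll3, the TSS of Jag1, Hes5 and Lfng. Of these, the Dll3, Hes5 and Lfng sites are shown because 3 TFs shared bases there, which was not so at the others. The Jag1 site shown, in the 3′ flank, stands in place of that at its TSS, and this site, the Rbpj site and the promoters of Hes1 and Hes5 were chosen after their values were seen. The Hes5 site lies on the neighbouring gene Pank4 and was cut to 109 bases to leave out untranslated sequence of that gene. Flanks are named by position relative to the Notch pathway gene and can hold other genes. Capitals mark the letters GGATTA (the OTX2 motif), ATGCAAAT (the POU octamer), ACAAAG or ACAATG (SOX2 motifs), CAGCAGG (a ZIC2 motif) and TGGGAA (the RBPJ motif) on either strand, and a match describes the letters only.
Dll3 3′ flank, with peaks of ZIC2, SOX2 and POU5F1, chr7:29074898-29075097: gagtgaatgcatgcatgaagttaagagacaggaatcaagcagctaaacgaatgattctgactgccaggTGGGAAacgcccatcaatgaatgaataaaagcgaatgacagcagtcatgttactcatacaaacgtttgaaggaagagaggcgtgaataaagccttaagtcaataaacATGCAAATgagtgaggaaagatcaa
Hes5 3′ flank, with peaks of ZIC2, POU5F1 and POU3F1, chr4:154338255-154338363: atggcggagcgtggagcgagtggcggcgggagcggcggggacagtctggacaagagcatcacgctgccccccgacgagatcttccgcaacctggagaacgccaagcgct
Lfng 5′ flank, with peaks of ZIC2, OTX2 and SOX2, chr5:141060045-141060244: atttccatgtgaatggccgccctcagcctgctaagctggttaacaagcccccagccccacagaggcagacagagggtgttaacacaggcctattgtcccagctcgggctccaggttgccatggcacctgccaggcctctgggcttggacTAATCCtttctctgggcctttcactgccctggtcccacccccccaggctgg
Jag1 3′ flank, with peaks of ZIC2, POU5F1 and POU3F1, chr2:136893167-136893366: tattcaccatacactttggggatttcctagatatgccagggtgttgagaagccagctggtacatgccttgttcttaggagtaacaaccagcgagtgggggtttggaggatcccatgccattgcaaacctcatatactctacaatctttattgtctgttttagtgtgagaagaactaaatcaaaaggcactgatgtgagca
Rbpj intron, with peaks of OTX2 and POU3F1, chr5:53988504-53988703: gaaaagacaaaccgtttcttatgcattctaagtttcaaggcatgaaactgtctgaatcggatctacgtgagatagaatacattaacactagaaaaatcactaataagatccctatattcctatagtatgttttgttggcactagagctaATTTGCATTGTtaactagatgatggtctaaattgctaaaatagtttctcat
Hes1, before the first coding TSS, chr16:30065226-30065425: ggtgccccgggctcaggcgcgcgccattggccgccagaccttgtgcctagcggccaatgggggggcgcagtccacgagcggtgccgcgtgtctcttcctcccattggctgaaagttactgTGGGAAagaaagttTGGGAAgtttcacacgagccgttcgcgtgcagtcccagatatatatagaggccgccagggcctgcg
Hes5, before the first coding TSS, chr4:154334832-154335031: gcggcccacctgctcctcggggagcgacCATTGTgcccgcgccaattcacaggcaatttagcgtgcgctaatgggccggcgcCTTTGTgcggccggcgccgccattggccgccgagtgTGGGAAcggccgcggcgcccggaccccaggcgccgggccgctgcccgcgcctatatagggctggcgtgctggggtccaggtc

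The Dll3 site held TGGGAA at bases 69 to 74 and the octamer ATGCAAAT at bases 176 to 183. The octamer was found in 529 of the 10251 EpiSC sites with 3 or more TFs in the genome (5.16%, 95% Wilson interval 4.75 to 5.61), and in 1.75% of 1279204 windows of 200 bases spaced across the genome. The Lfng site held GGATTA on the minus strand at bases 150 to 155. In the Rbpj site, the octamer at bases 150 to 157 overlapped an ACAATG at bases 155 to 160, both on the minus strand. None of the letters searched were in the Jag1 window or in the stretch shown for Hes5. The 200 bases before the first coding transcription start site (TSS) of Hes1 held TGGGAA at bases 121 to 126. It occurred again at bases 135 to 140, and both matches were on the plus strand. The same distance before Hes5 held 1 TGGGAA, together with ACAATG and ACAAAG on the minus strand. TGGGAA is short, and 16.8% of 22362 promoter windows of this length held it, as did the windows of 4 of the 10 genes, Notch1, Hes1, Hes5 and Lfng.

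The lists came from peak calling with MACS1.4, and each peak carried a score, which is -10 times the log10 of its p-value. Scores ran from 50 to 3233.06, and the highest peaks of many lists had exactly 3100, so peaks at that score were not ranked. The EpiSC lists held 122053 ZIC2, 103281 OTX2, 63751 SOX2, 62457 POU5F1 and 112753 POU3F1 peaks, and the activin-free lists 109305, 114041, 87907, 126908 and 101989 in the same order. The lists contained no reads, so the depth of the libraries was unknown. Numbers of peaks were compared with those at all protein-coding genes of the same list. Scores were not compared in this way, so whether a score difference between cultures was particular to these genes was not tested. The intervals given cover counting error only.

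ZIC2 peaks were the most frequent at these genes and POU3F1 peaks the least frequent. In EpiSCs the 10 windows held 235 ZIC2 peaks, 91 OTX2 peaks, 30 SOX2 peaks, 15 POU5F1 peaks and 12 POU3F1 peaks in 1412 kb. The ZIC2 density was 16.6 peaks per 100 kb against 8.85 over the windows of all protein-coding genes, a ratio of 1.88 (95% Poisson interval 1.65 to 2.14). OTX2 and SOX2 densities were at the level of all genes, with ratios of 1.00 (0.806 to 1.23) and 0.993 (0.670 to 1.42). POU5F1 and POU3F1 densities were lower, with ratios of 0.521 (0.292 to 0.860) and 0.323 (0.167 to 0.564). In activin-free cells, the ratios were 1.94 (1.69 to 2.22) for ZIC2, 0.827 (0.644 to 1.04) for OTX2, 0.796 (0.548 to 1.12) for SOX2, 0.463 (0.302 to 0.678) for POU5F1 and 0.326 (0.162 to 0.582) for POU3F1. The order of the 5 ratios was thus the same in both cultures. Over the alternatives tried, the POU3F1 ratio ranged from 0.131 to 0.434 in EpiSCs and from 0.196 to 0.437 in activin-free cells. Windows of neighbouring genes overlap, so that the pooled density of all genes counted some peaks more than once. In EpiSCs, the median gene had 6.80 ZIC2 peaks per 100 kb among all genes and 16.3 among the 10. For POU5F1 these medians were 1.43 and 1.09, and for POU3F1 both were 0. The POU3F1 medians in activin-free cells were 0.655 and 0.452. The pooled POU3F1 ratio in EpiSCs therefore does not describe the median gene. The windows of the 10 genes had a median GC content of 48.5%, against 44.3% for all protein-coding genes (quartiles 41.3 and 47.6%), and its part in the densities was not tested.

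**Figure D1:**
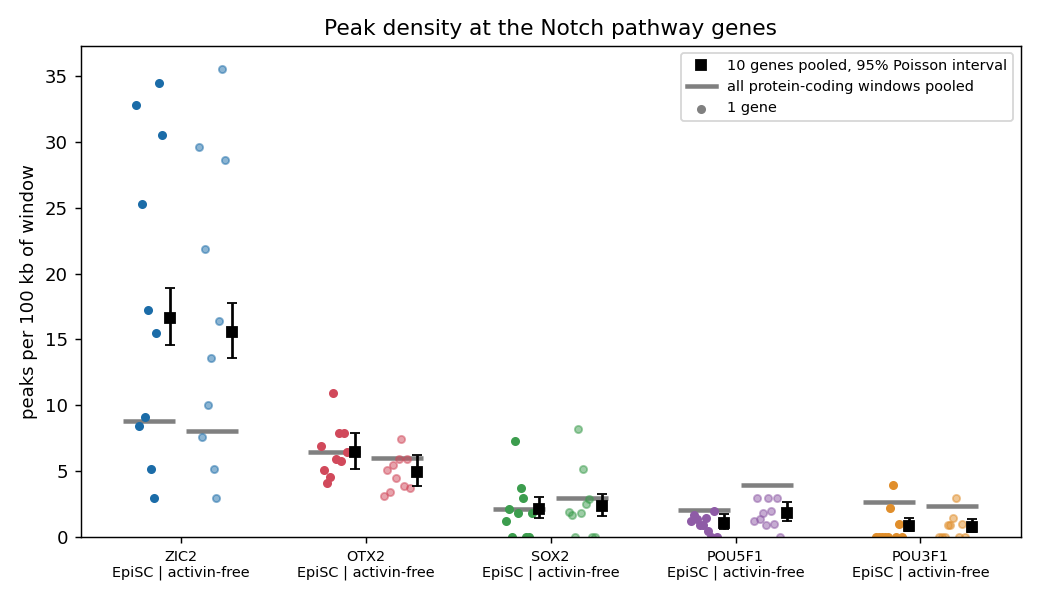
Peaks per 100 kb of window for each TF, with EpiSC values on the left and activin-free values on the right of each pair. Each coloured point is 1 of the 10 genes, the black square is the pooled density with its 95% Poisson interval, and the grey line is the pooled density over all protein-coding windows. ZIC2 squares (16.6 and 15.6) lie above the grey lines, whereas POU5F1 and POU3F1 squares lie below them.

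Having a peak of these TFs somewhere in the window was common. At least 1 ZIC2 peak was found at 10 of 10 genes in EpiSCs and at 93.1% of all protein-coding genes, and at least 1 OTX2 peak at 10 of 10 against 93.3%. SOX2 peaks were present at 7 genes (75.0% of all genes), POU5F1 peaks at 8 (77.3%), and POU3F1 peaks at 3 (47.8%). In activin-free cells, ZIC2 and OTX2 peaks were again present at all 10 genes (92.3 and 95.6% of all genes), SOX2 peaks at 7 (85.6%), POU5F1 peaks at 9 (89.5%) and POU3F1 peaks at 5 (53.0%). The genes thus differed from each other in how many peaks they held rather than in whether a ZIC2 or OTX2 peak was there. More ZIC2 than POU3F1 peaks were found at 9 of the 10 genes in EpiSCs, against 73.5% of all genes, and at 9 in activin-free cells, against 72.8%. Rbpj was the exception in both cultures, with 6 ZIC2 and 8 POU3F1 peaks in EpiSCs and 6 of each in activin-free cells.

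**Figure D2:**
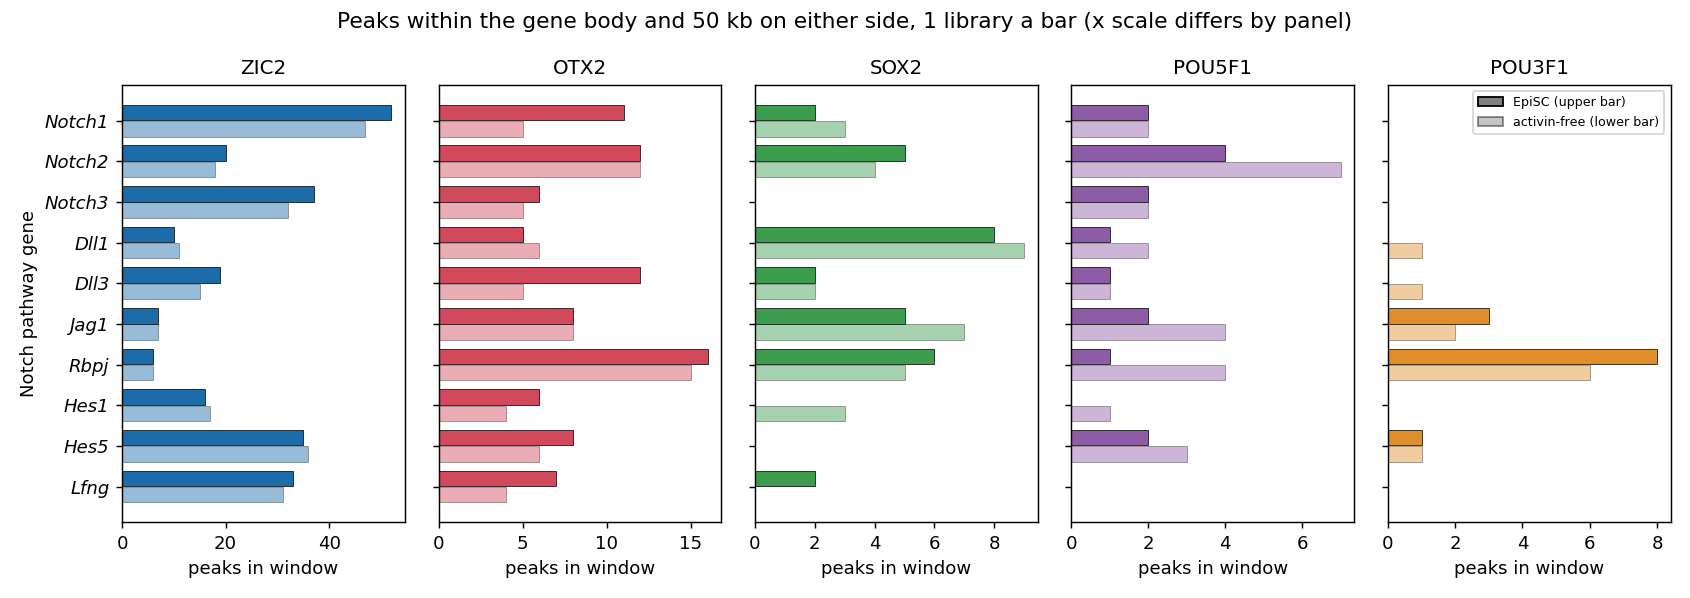
Number of peaks in the window of each gene, with 1 panel for each TF and its own x scale. The upper bar is the EpiSC library and the lower, paler bar the activin-free library. ZIC2 bars range from 6 at Rbpj to 52 at Notch1, and POU3F1 bars reach 8 at Rbpj.

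Among the receptors, Notch1 and Notch3 had dense ZIC2 peaks and Notch2 did not. Notch1, a receptor required by the embryo at mid-gestation, lies at chr2:26313423-26372183 on the minus strand and held 52 ZIC2 peaks in EpiSCs and 47 in activin-free cells. This was 32.8 peaks per 100 kb in EpiSCs, above 98.8% of all protein-coding genes, and the ZIC2 peaks covered 47.5% of the window. OTX2 peaks at Notch1 numbered 11 and 5, SOX2 peaks 2 and 3, POU5F1 peaks 2 and 2, and POU3F1 peaks 0 and 0. Neither POU3F1 list thus had a peak at Notch1. The highest ZIC2 peak, at chr2:26356196-26360463 with a score of 3100, was 13.9 kb into the gene over a downstream annotated TSS. The peak over the first coding TSS scored 640 in EpiSCs and 658 in activin-free cells, so that this promoter carried a lower ZIC2 peak than the intron region.

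Notch2, a closely related receptor, lies at chr3:97817461-97954290 and held 20 and 18 ZIC2 peaks in a window of 237 kb. Its ZIC2 density in EpiSCs, 8.44 per 100 kb, was above that of 56.3% of all genes and so close to the middle. There were 12 and 12 OTX2 peaks, 5 and 4 SOX2 peaks, 4 and 7 POU5F1 peaks, and 0 and 0 POU3F1 peaks. Notch2 had more POU5F1 peaks than the other 9 genes in both cultures, but its window was the longest. Per 100 kb, its POU5F1 density in EpiSCs was 1.69, below the 1.97 of Hes5, and above 54.8% of all genes. In activin-free cells it was 2.96, as at Jag1 and Hes5, and above 52.9% of all genes. The highest peak at Notch2 was the ZIC2 peak over the TSS, with a score of 2748 in EpiSCs and 3100 in activin-free cells. Of the POU5F1 peaks, the highest was in an intron 8.70 kb from the TSS, at chr3:97825743-97826574. It scored 204 in EpiSCs and 741 in activin-free cells. POU5F1 scores here and at the genes below were not set against the whole lists, which held 62457 EpiSC and 126908 activin-free peaks.

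Notch3, known for its role in vascular smooth muscle, lies at chr17:32257765-32303825 on the minus strand and held 37 and 32 ZIC2 peaks, 25.3 per 100 kb in EpiSCs. OTX2 peaks numbered 6 and 5, POU5F1 peaks 2 and 2, and no SOX2 or POU3F1 peak was listed in either culture. The highest ZIC2 peak in EpiSCs, with a score of 2656, was 75.4 kb downstream of the TSS and nearest to the TSS of Rrp1b. The highest POU5F1 peak, at chr17:32320584-32321768 and 17.4 kb upstream, scored 850 in EpiSCs and 2057 in activin-free cells, and its nearest coding TSS was that of Ephx3.

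The ligand genes were less alike than Notch1 and Notch3. Dll1, which encodes an activating Delta ligand, lies at chr17:15504318-15513836 on the minus strand and held 10 and 11 ZIC2 peaks, 5 and 6 OTX2 peaks, 8 and 9 SOX2 peaks, 1 and 2 POU5F1 peaks, and 0 and 1 POU3F1 peaks. SOX2 was the TF by which Dll1 stood out, since its 7.30 SOX2 peaks per 100 kb in EpiSCs were above 97.7% of all genes. The highest of these, at chr17:15518357-15519734 and 6.11 kb upstream of the first coding TSS, scored 361 in EpiSCs, and the overlapping activin-free peak scored 573. Another SOX2 peak, at chr17:15527457-15528762 and 15.2 kb upstream, scored 218 in EpiSCs, and the activin-free peaks overlapping it scored 129 and 152. The upstream SOX2 peaks of Dll1 reached to 29.1 kb from the first coding TSS, where the EpiSC peak scored 137 and the overlapping activin-free peak 60.2. Of the 8 EpiSC SOX2 peaks, 5 were nearest to the TSS of Dll1. Those 15.2, 16.5 and 29.1 kb upstream were nearest to the TSS of Fam120b. The POU5F1 peak found in both cultures lay 16 kb downstream of the first coding TSS and scored 445 and 2190.

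Dll3, a divergent ligand that acts within the cell that makes it and does not activate Notch on neighbours, lies at chr7:29076673-29087257 on the minus strand. It held 19 and 15 ZIC2 peaks, 12 and 5 OTX2 peaks, 2 and 2 SOX2 peaks, 1 and 1 POU5F1 peaks, and 0 and 1 POU3F1 peaks. OTX2 density in EpiSCs was 10.9 per 100 kb, above 80.2% of all genes, and in activin-free cells 4.52 per 100 kb, above 37.1%. The TSSs of 6 other coding genes lie in this window, and of the 12 OTX2 peaks in EpiSCs 2 were nearest to the TSS of Dll3 itself. The OTX2 peak closest to the Dll3 TSS, 0.627 kb upstream in EpiSCs, scored 183 and its activin-free counterpart 135.

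Jag1, the Jagged ligand that also acts in vessels and the inner ear, lies at chr2:136907192-136942380 on the minus strand, with no other coding gene starting in its window. It held 7 and 7 ZIC2 peaks, 8 and 8 OTX2 peaks, 5 and 7 SOX2 peaks, 2 and 4 POU5F1 peaks, and 3 and 2 POU3F1 peaks. Peaks of all 5 TFs were therefore present in both cultures, which was also seen at Rbpj. ZIC2 peaks were few but 1 of them was high, since the peak over the TSS scored 3037 in EpiSCs and 3035 in activin-free cells, against a median of 128 for the 7 peaks in EpiSCs. The highest POU5F1 peak, 39.0 kb upstream, scored 470 and 1318.

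Rbpj, the gene of the DNA-binding partner of Notch, lies at chr5:53947018-54048684 and had the pattern least like those of the other genes. It held 6 and 6 ZIC2 peaks, 16 and 15 OTX2 peaks, 6 and 5 SOX2 peaks, 1 and 4 POU5F1 peaks, and 8 and 6 POU3F1 peaks. Its ZIC2 density in EpiSCs, 2.98 per 100 kb, was above that of 28.8% of all genes, and its POU3F1 density, 3.97 per 100 kb, above 81.7%. Of the 12 POU3F1 peaks that the 10 windows held in EpiSCs, 8 were at Rbpj, 3 at Jag1 and 1 at Hes5. The POU3F1 peaks of Rbpj were in the gene body, 7 of 8 in introns, and 6 of the 8 overlapped an activin-free POU3F1 peak. The highest, at chr5:54002900-54003813, scored 281 in EpiSCs and 348 in activin-free cells. The ZIC2 peak over a TSS, with a score of 1649 in EpiSCs and 3100 in activin-free cells, was 33.9 kb from the most upstream TSS and covered a downstream one. The window GC content of Rbpj, 43.1%, was the lowest of the 10 after Jag1 with 42.8%.

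The direct targets Hes1 and Hes5, repressors that keep progenitors undifferentiated, have short windows of 103 and 101 kb. Each held at most 3 peaks in any SOX2, POU5F1 or POU3F1 list, as did Notch1, Notch3, Dll3 and Lfng. Hes1, at chr16:30064470-30067882, held 16 and 17 ZIC2 peaks, 6 and 4 OTX2 peaks, 0 and 3 SOX2 peaks, 0 and 1 POU5F1 peaks, and 0 and 0 POU3F1 peaks. In EpiSCs, a ZIC2 peak 5112 bp wide with a score of 3100 covered all but the 3′ end of the gene, at chr16:30062697-30067808. In activin-free cells, 3 ZIC2 peaks with scores of 3100, 55.7 and 1336 occupied this region. The 200 bases printed above were thus within the EpiSC peak. The 3 SOX2 peaks of activin-free cells scored between 75.7 and 81.9, and their density of 2.90 per 100 kb was above 61.0% of all genes.

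Hes5, at chr4:154335032-154336480, held 35 and 36 ZIC2 peaks, 8 and 6 OTX2 peaks, 2 and 3 POU5F1 peaks, and 1 and 1 POU3F1 peaks, and no SOX2 peak was listed. Its 34.5 ZIC2 peaks per 100 kb in EpiSCs were above 99.2% of all genes, and those of activin-free cells above 99.7%. In EpiSCs, its POU5F1 density of 1.97 per 100 kb was above 64.4% of all genes, and its POU3F1 density of 0.986 above 63.9%. The ZIC2 peak at chr4:154334133-154337061 covered the gene and scored 3100 in both cultures. The window also holds the TSSs of Pank4, Plch2 and Tnfrsf14, and 9 of the 35 EpiSC ZIC2 peaks were nearest to the TSS of Hes5.

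Lfng, the Fringe glycosyltransferase that modifies Notch receptors and so alters their response to each ligand, lies at chr5:141083295-141091497. It held 33 and 31 ZIC2 peaks, 7 and 4 OTX2 peaks, and 2 and 0 SOX2 peaks, with no POU5F1 or POU3F1 peak listed. ZIC2 peaks covered 47.0% of its window in EpiSCs and 42.1% in activin-free cells. The peak over the TSS scored 2678 and 3100, and the highest EpiSC peak was 40.2 kb downstream, where the nearest coding TSS was that of Ttyh3. Both SOX2 peaks scored low, at 121 and 83.3.

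**Figure D3:**
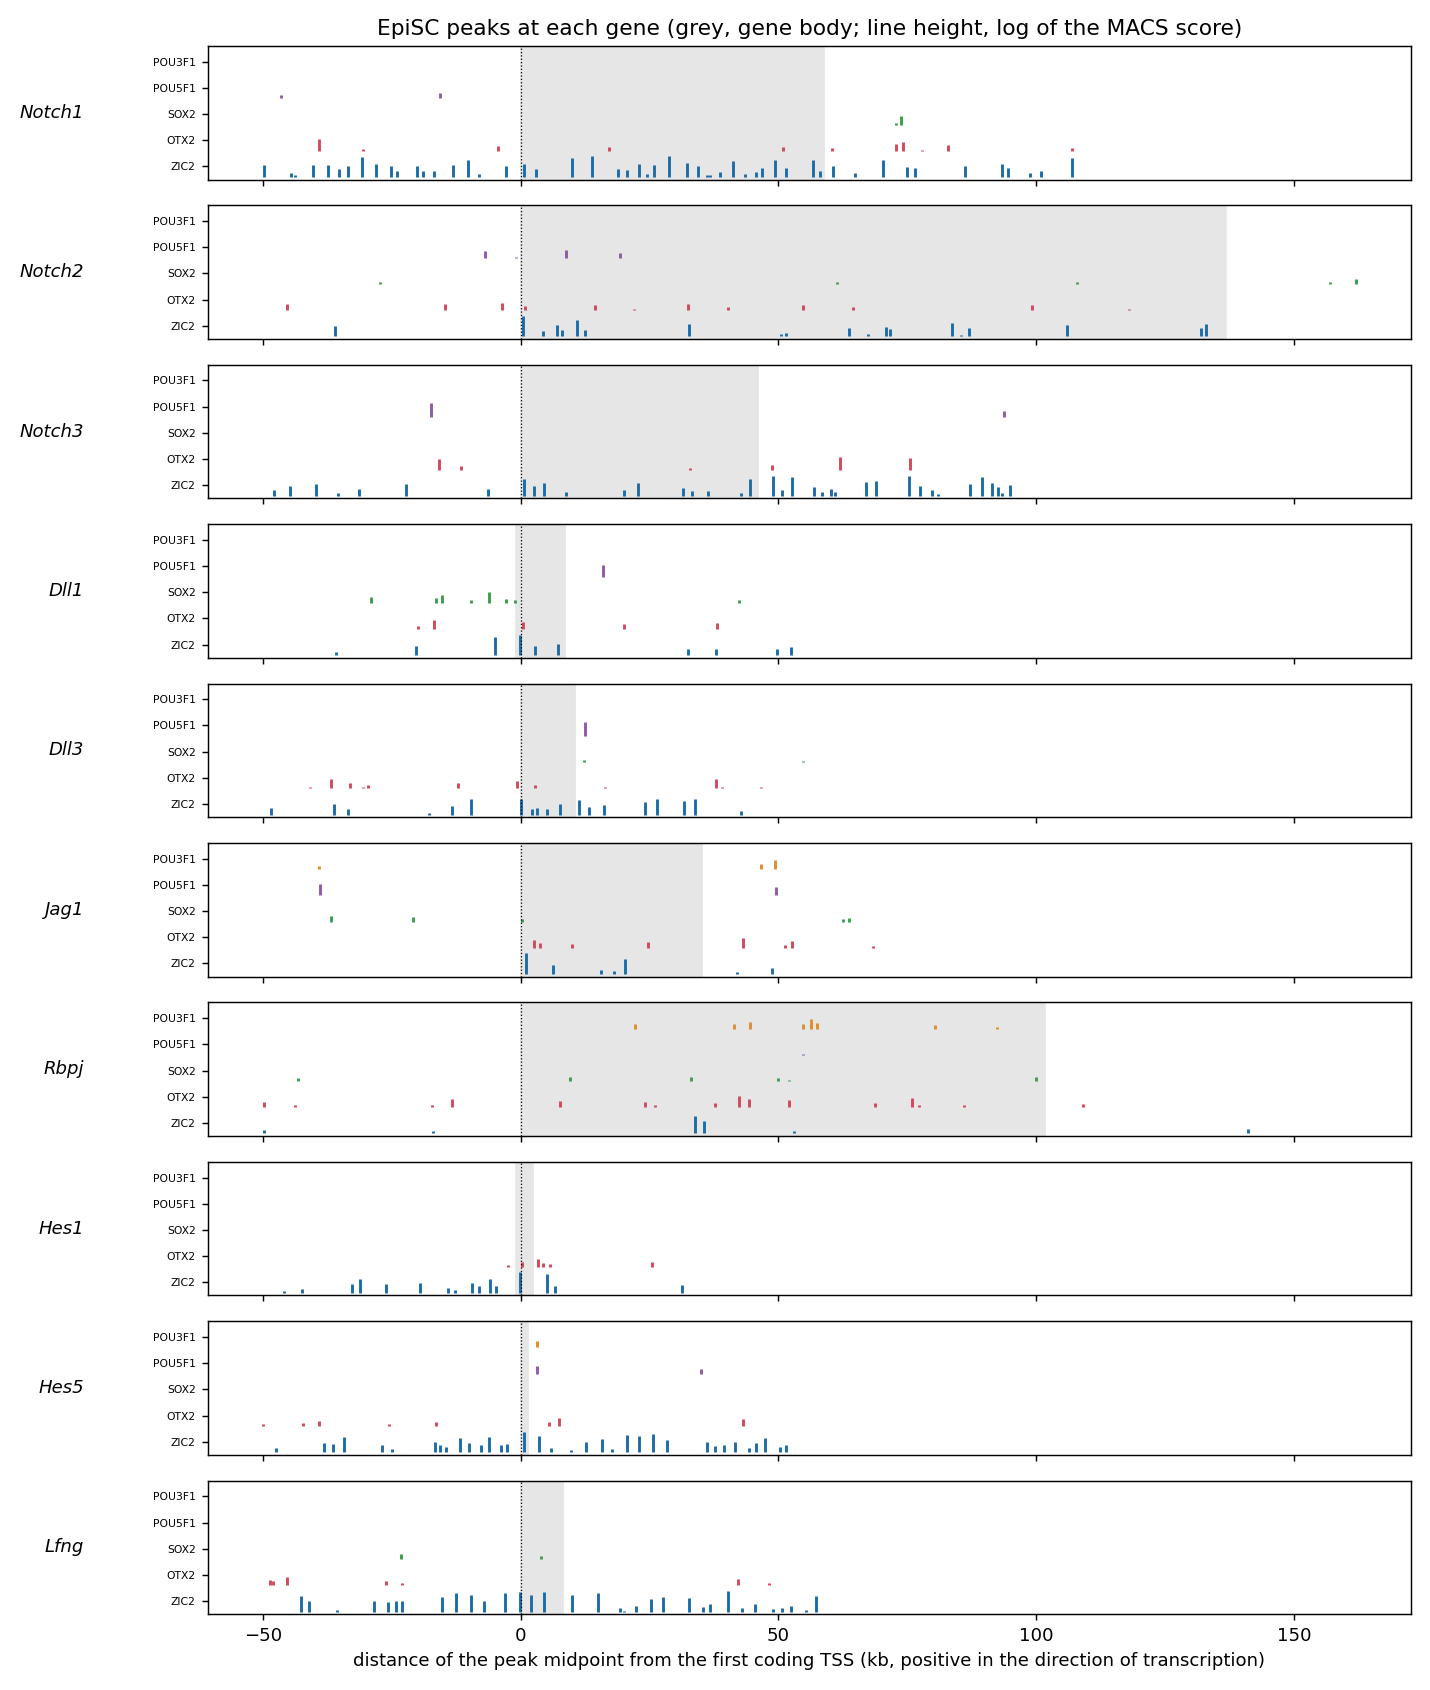
EpiSC peaks at each gene by distance of the midpoint from the first coding TSS, in kb, positive in the direction of transcription. The grey area is the gene body, and the height of a line grows with the log of the MACS score. ZIC2 lines fill the windows of Notch1, Notch3, Hes5 and Lfng, SOX2 lines lie upstream of Dll1, and the 8 POU3F1 lines of Rbpj lie in its gene body.

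Taking the genes by ZIC2 density in EpiSCs, Hes5 (34.5 per 100 kb), Notch1 (32.8), Lfng (30.5) and Notch3 (25.3) came before Dll3 (17.2) and Hes1 (15.5), followed by Dll1 (9.13), Notch2 (8.44), Jag1 (5.18) and Rbpj (2.98). The 95% Poisson interval of each gene overlapped that of the next gene in this order. The intervals of the 4 leading genes began at 17.8 or above, and those of the last 4 ended at 16.8 or below, so that these groups did not overlap. The windows of the 4 leading genes had GC contents of 53.1, 51.1, 53.3 and 49.3%, and those of the last 4 between 42.8 and 45.5%. GC content therefore moved with ZIC2 density over these genes, and its part was not tested. Over the 10 lists, the peak densities of Notch1 were most like those of Lfng (Pearson's r = 0.997), Notch3 was most like Notch1 (0.996), Hes5 like Notch3 (0.994), Hes1 like Hes5 (0.980), Dll3 like Hes1 (0.946) and Notch2 like Dll3 (0.931). Dll1 and Jag1 were most like each other (0.776), and Rbpj was most like Jag1 (0.631). These values describe 10 lists that share TFs and base composition between cultures, and the large ZIC2 densities weigh heavily in them.

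A ZIC2 peak contained a TSS at 10 of 10 genes in EpiSCs, against 66.2% of all protein-coding genes, and at 10 of 10 in activin-free cells, against 64.4%. Peaks of the other TFs were seldom at a TSS of these genes. An OTX2 peak contained a TSS at Notch1, Dll1 and Hes1 in EpiSCs (15.5% of all genes) and at Notch1 in activin-free cells (15.3%). A SOX2 peak contained a TSS at Dll1 and Jag1 in EpiSCs (2.93%) and at Notch1 and Jag1 in activin-free cells (7.14%). The activin-free SOX2 peak of Dll1 corresponding to that over the TSS in EpiSCs began just beyond the TSS, and the EpiSC peak scored 69.6. No POU5F1 peak contained a TSS of the 10 genes in EpiSCs (1.99% of all genes) or activin-free cells (4.27%), and no POU3F1 peak in EpiSCs (3.39%) or activin-free cells (4.73%). Most ZIC2 peaks were nonetheless away from the TSSs of these genes. Of 235 in EpiSCs, 15 contained a TSS of the Notch pathway gene, 46 were in its introns, 76 in the 5′ flank and 85 in the 3′ flank. Peaks over a TSS of a neighbouring gene were counted by their place relative to the Notch pathway gene. For 126 of the 235 (53.6%) the nearest coding TSS was that of the Notch pathway gene.

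Most ZIC2 peaks of these genes were found in both cultures. Of the ZIC2 peaks, 207 of 235 in EpiSCs (88.1%, 95% Wilson interval 83.3 to 91.6) overlapped an activin-free ZIC2 peak, against 79.5% over all protein-coding windows, and 212 of 220 in activin-free cells (96.4%, 93.0 to 98.1) overlapped an EpiSC peak, against 92.2%. Shared EpiSC ZIC2 peaks had a median score of 346, and the 28 that were not shared a median of 92.6. ZIC2 peaks listed for EpiSCs alone were therefore low-scoring, with the highest at 170. Of the OTX2 peaks, 62 of 91 in EpiSCs were shared (68.1%, 58.0 to 76.8, against 77.0%) and 59 of 70 in activin-free cells (84.3%, 74.0 to 91.0, against 71.3%). Of the SOX2 peaks, 22 of 30 (73.3%, against 76.8%) and 21 of 33 (63.6%, against 56.6%) were shared. When both lists were cut to scores of at least 100, 9 EpiSC and 20 activin-free SOX2 peaks were left, and the activin-free share was 30%. In the full lists, shared activin-free SOX2 peaks had a median score of 137, against 81.8 for those not shared. All 15 EpiSC POU5F1 peaks were shared, against 98.2%, and 15 of 26 activin-free POU5F1 peaks (57.7%, against 49.0%), from lists of 62457 and 126908 peaks. When only the top 50000 peaks by score were kept per list, the shares were 69.2% in EpiSCs and 100% in activin-free cells. POU3F1 peaks were shared in 8 of 12 (66.7%, against 81.2%) and 8 of 11 (72.7%, against 86.0%), and both EpiSC peaks left among the 50000 highest-scoring were shared. These intervals are wide, and for SOX2, POU5F1 and POU3F1 they included the share over all windows.

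OTX2 had fewer peaks in activin-free cells at 7 genes, more at 1 and an equal number at 2. The totals of 91 and 70 gave a ratio of 0.769 (95% exact binomial interval 0.555 to 1.06), against 0.931 over all protein-coding windows, a value within the interval. The largest differences were at Dll3, from 12 to 5, and at Notch1, from 11 to 5. At Notch1, 2 neighbouring EpiSC OTX2 peaks with scores of 258 and 162 corresponded to a single activin-free peak with a score of 1035 at chr2:26297427-26299869, so that part of the difference in number was a difference in how a region was divided. The EpiSC OTX2 peaks of these windows that were not shared had a median score of 74.0, and the highest of them scored 140. POU5F1 peaks were more numerous in activin-free cells at 6 genes and fewer at none, with totals of 15 and 26 and a ratio of 1.73 (0.885 to 3.52), close to the 1.95 over all windows. The ratios of ZIC2 (0.936, 0.775 to 1.13), SOX2 (1.10, 0.650 to 1.87) and POU3F1 (0.917, 0.366 to 2.27) also had intervals that included those of all windows, which were 0.906, 1.37 and 0.910.

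Peaks of the other 4 TFs at these genes overlapped ZIC2 peaks more often than over all windows. In EpiSCs, 35 of 91 OTX2 peaks (38.5%, 29.1 to 48.7) overlapped a ZIC2 peak, against 19.5% over all protein-coding windows, and in activin-free cells 23 of 70 (32.9%, 23.0 to 44.5), against 13.9%. Seen from the ZIC2 peaks, 36 of 235 (15.3%, against 15.7%) and 26 of 220 (11.8%, against 13.2%) overlapped an OTX2 peak. Of the SOX2 peaks, 7 of 30 (23.3%, 11.8 to 40.9, against 7.21%) and 10 of 33 (30.3%, 17.4 to 47.3, against 8.41%) overlapped a ZIC2 peak. The share was 6 of 15 (40%, 19.8 to 64.3, against 6.89%) and 8 of 26 (30.8%, 16.5 to 50, against 4.67%) for POU5F1, and 2 of 12 (16.7%, 4.70 to 44.8, against 1.66%) and 2 of 11 (18.2%, 5.14 to 47.7, against 2.83%) for POU3F1. The share overlapping ZIC2 was thus above that of all windows for each of the 4 TFs, whereas the share of ZIC2 peaks overlapping OTX2 was at the general level. ZIC2 peaks covered between 2.70 and 47.5% of the individual windows in EpiSCs, and the part of this coverage in the overlap was not tested. When at least 50% of both peaks had to be shared, 9.89% of the EpiSC and 7.14% of the activin-free OTX2 peaks overlapped a ZIC2 peak, and 3.83 and 2.27% of the ZIC2 peaks an OTX2 peak. POU5F1 and POU3F1 peaks coincided at few places, with 4 of 15 POU5F1 peaks in EpiSCs (26.7%, 10.9 to 52.0, against 45.9%) and 5 of 26 in activin-free cells (19.2%, 8.51 to 37.9, against 40.7%). Of the POU3F1 peaks, 4 of 12 (33.3%, against 30.4%) and 5 of 11 (45.5%, against 57.1%) overlapped a POU5F1 peak. Among the 50000 highest-scoring peaks of each list, the share of EpiSC POU5F1 peaks overlapping POU3F1 was 7.69%. A POU5F1 peak was overlapped by 0 of 91 OTX2 peaks in EpiSCs (upper bound 4.05%, against 4.74%) and by 3 of 70 in activin-free cells (4.29%, 1.47 to 11.9, against 11.5%).

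**Figure D4:**
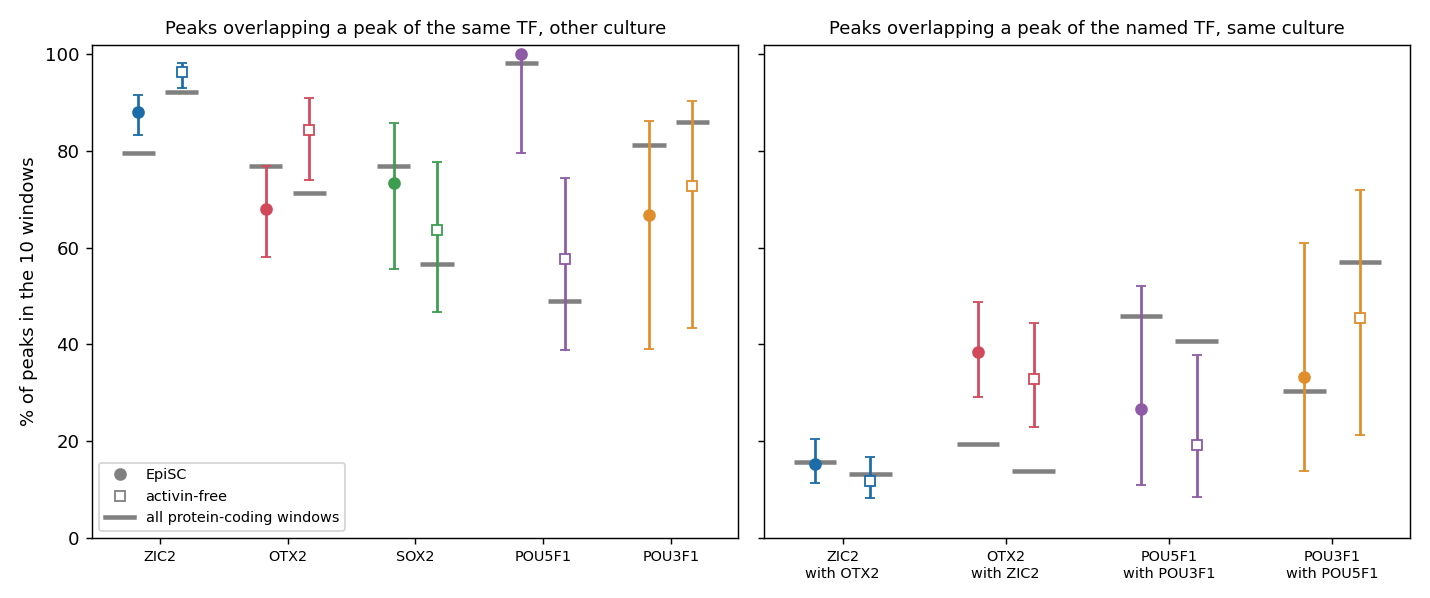
Left, percent of peaks in the 10 windows that overlap a peak of the same TF in the other culture. Right, percent that overlap a peak of the named TF in the same culture. Filled circles are EpiSC, open squares activin-free, bars are 95% Wilson intervals and grey lines the percent over all protein-coding windows. The OTX2 points on the right (38.5 and 32.9%) lie above their grey lines (19.5 and 13.9%), and the ZIC2 points beside them lie on theirs.

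Overlapping peaks of 1 culture formed 320 sites in EpiSCs, of which 272 had peaks of a single TF, 40 of 2 TFs and 8 of 3 TFs. The 8 sites with 3 or more TFs compare with 2.75% of all EpiSC sites in protein-coding windows. In activin-free cells 296 sites were formed, and 8 had 3 or more TFs, against 4.86%. In EpiSCs, 3 of the 8 were at a TSS of the Notch pathway gene. At Notch2 (chr3:97816171-97818919) the ZIC2 peak of the TSS overlapped an OTX2 peak and a POU5F1 peak with scores of 98.9 and 51.0. At Dll1 (chr17:15511067-15514907) and Jag1 (chr2:136939074-136943725) the TSS peak overlapped OTX2 and SOX2 peaks. In each of these, no base was covered by all 3 TFs.

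The other EpiSC sites lay in the flanks of the Notch pathway genes, where TSSs of neighbouring genes were not counted. At Notch1, ZIC2, OTX2 and SOX2 peaks were joined 74.0 kb downstream of the TSS, at chr2:26296612-26299844, nearest to the TSS of Sec16a. At most 2 of these TFs shared a base there. OTX2 scored 258 in EpiSCs and 1035 in activin-free cells. The site at the 3′ end of Dll3, chr7:29073673-29076951, nearest to the TSS of BC089491, had bases covered by ZIC2, SOX2 and POU5F1 peaks. Their scores were 786, 66.0 and 694, and 951, 143 and 2232 in activin-free cells. This is the site whose octamer is shown above. At Hes5, the site at chr4:154337748-154339586, 3.64 kb downstream of the Hes5 TSS, was nearest to the TSS of Pank4 and held untranslated sequence of Pank4. It combined ZIC2, POU5F1 and POU3F1 peaks with scores of 1280, 181 and 172, and was found with the same TFs in activin-free cells. The Jag1 site at chr2:136892386-136893946, 49.2 kb downstream, combined the same TFs in EpiSCs with scores of 128, 234 and 288, and in activin-free cells no ZIC2 peak overlapped the POU5F1 and POU3F1 peaks there. The Lfng site at chr5:141059534-141060795, 23.1 kb upstream and nearest to the TSS of Grifin, combined ZIC2, OTX2 and SOX2 peaks with scores of 399, 63.6 and 121. In activin-free cells a ZIC2 peak but no OTX2 or SOX2 peak was listed there.

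In activin-free cells, sites with 3 or more TFs were also found at Rbpj and Hes1. At Rbpj, a site at chr5:53987891-53990239 had bases covered by OTX2, POU5F1 and POU3F1 peaks with scores of 597, 240 and 281. This is the intron site printed above, where in EpiSCs only OTX2 (426) and POU3F1 (115) were listed. A further Rbpj site, at chr5:53998439-54002334, joined peaks of all 5 TFs, but at most 2 of them shared a base. The Hes1 site at chr16:30068234-30071595, downstream of the gene, joined ZIC2 (3100), OTX2 (63.5) and SOX2 (81.9) peaks. Here too, at most 2 of the TFs shared a base.

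The letters searched were also counted in the 200 bases at the middle of every peak. GGATTA was present in 27 of the 91 EpiSC OTX2 peaks of these genes (29.7%, 21.3 to 39.7), against 23.5% of all EpiSC OTX2 peaks and 7.96% of the genome windows. ACAAAG was present in 12 of 30 SOX2 peaks (40%, 24.6 to 57.7), against 38% of all SOX2 peaks, and CAGCAGG in 34 of 235 ZIC2 peaks (14.5%, 10.5 to 19.5), against 19%. The octamer was present in 3 of 12 POU3F1 peaks (25%, 8.89 to 53.2) and in 0 of 15 POU5F1 peaks (upper bound 20.4%), against 4.67 and 6.44% of all peaks of these TFs. The octamer of the Dll3 site lay outside the middle of its POU5F1 peak. For OTX2, SOX2 and ZIC2, the peaks of the Notch pathway genes thus held these letters at the rate of the TF's other peaks within counting error. Of the sites with 3 TFs in EpiSCs, those at Notch1, Notch2, the TSS of Jag1 and Lfng, all of which had an OTX2 peak, held GGATTA in their central 200 bases. Genome-wide, 13.3% of 6204 EpiSC sites with 3 or more TFs including OTX2 held it. Of the sites without an OTX2 peak, those at Dll3 and the 3′ flank of Jag1 did not hold these letters in their central 200 bases. At Hes5 only 109 bases were searched, without a match, and the Dll1 window was not analysed here.

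The 10 genes were also set beside 32 other genes of the pathway, which included further ligands and receptors, Mastermind coactivators, Hes and Hey genes, the gamma-secretase subunits and ADAM proteases. In EpiSCs the median gene of this list had 18.0 ZIC2, 8.06 OTX2, 0.971 SOX2, 1.39 POU5F1 and 0 POU3F1 peaks per 100 kb, against 16.3, 6.19, 1.83, 1.09 and 0 in the 10 genes and 6.80, 6.21, 1.44, 1.43 and 0 in all genes. ZIC2 and OTX2 peaks were present at all 32, SOX2 peaks at 21, POU5F1 peaks at 25 and POU3F1 peaks at 7.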

How the data were processed

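ChIP-seq of 5 TFs was done in 2 cultures, with 1 library for each. Reads had been mapped to mm9 with Bowtie2, per the labels, and peaks called by the authors with MACS1.4 against input, with a changed band width. The deposited lists hold peak positions with a MACS score, defined as -10 times the log10 of the p-value. The input library was not analysed here. Depth was unknown, so precision rests on the number of peaks alone.

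Genes and TSSs were taken from GENCODE vM1 on NCBIM37 (mm9), whose sequence was used for GC content and letters. The lists were matched to its 21 chromosomes, where 1 peak ended past a chromosome end. Windows were the gene body and 50 kb on either side. Overlap was counted from 1 bp. Intervals at 95% were exact Poisson (counts), Wilson (shares) and exact binomial (ratios of counts). No test was made because there were no replicates. The counting steps were tested on simulated data.

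All 10 genes were named. For sequence, the EpiSC site with most TFs, from 3, was taken for each gene, 100 bases on either side of the middle of the bases shared by most peaks, and the Dll1 window was left out as untranslated. For each gene the most alike gene was named, and for the 32 other pathway genes those with most or fewest peaks. The genes and lists were chosen with earlier results of these data known. Alternatives were a score of at least 100, the 50000 highest-scoring peaks, flanks of 20 or 100 kb, merging of peaks within 150 bp, overlap of at least 50% of both peaks, the nearest coding TSS, and a midpoint within 1000 bp of a TSS. Python 3.11.15, numpy 2.4.6, scipy 1.17.1 and matplotlib 3.10.9 were used.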

Additional observations from a re-analysis of the deposited data

How the results depend on the processing

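Of 118 values under the alternatives, 99 stayed close to the reported value, that is, within its 95% interval or, for a number of genes, within 1.5 times. Among the 50000 highest-scoring peaks of each list, the density ratio in EpiSCs was 2.22 for ZIC2 and 0.131 for POU3F1 (2 peaks left), the shared percentages were 69.2 for EpiSC POU5F1, 100 for EpiSC POU3F1, 91.2 for activin-free OTX2 and 100 for activin-free POU5F1, and 7.69% of EpiSC POU5F1 peaks overlapped a POU3F1 peak and 7.03% of activin-free ZIC2 peaks an OTX2 peak. With scores of at least 100, the EpiSC SOX2 ratio was 0.665 (9 peaks), the shared percentages were 30.0 for activin-free SOX2 and 100 for activin-free POU3F1, and 8.95 and 6.95% of EpiSC and activin-free ZIC2 peaks overlapped an OTX2 peak. With 50% overlap of both peaks, 78.7 and 84.1% of EpiSC and activin-free ZIC2 peaks were shared, 3.83 and 2.27% of ZIC2 peaks overlapped an OTX2 peak, and 9.89 and 7.14% of OTX2 peaks a ZIC2 peak. The cause was not tested, but fewer peaks enter the first 2 settings, and a stricter overlap can only lower a share. Over all alternatives, the ZIC2 ratio ranged from 1.78 to 2.22 in EpiSCs and from 1.87 to 2.21 in activin-free cells, and the POU3F1 ratio from 0.131 to 0.434 and from 0.196 to 0.437. More ZIC2 than POU3F1 peaks were found at 9 or 10 genes throughout, and a ZIC2 peak at a TSS at 10 genes, except 9 in activin-free cells with the midpoint within 1000 bp. No paired analysis was possible because the result comes from no test and each group had 1 library.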

Other observations

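Among the 32 other genes of the pathway, the coactivator gene Maml3 had the most ZIC2 peaks in EpiSCs (39) and also the most POU5F1 peaks (12), in a window of 517 kb. The fewest ZIC2 peaks, 4, were at Hey2, a hairy-related target gene, which had 5 POU3F1 peaks. The most OTX2 peaks were at Maml1 (33) and the fewest at Hey1 (2). Adam10, the gene of the protease that makes the first cut in the activated receptor, held 22 POU3F1 peaks in EpiSCs and 19 in activin-free cells, against 9 and 7 ZIC2 peaks, and had as many SOX2 peaks (8) as Maml2. Fbxw7, whose product marks the Notch intracellular domain for degradation, held 11 and 12 POU3F1 peaks beside 7 and 7 ZIC2 peaks. Hes3 had 34 and 35 ZIC2 peaks and Jag2 35 and 40, with no POU3F1 peak at either gene. Fbxw7, Hes3 and Jag2 were named after their values were seen. These windows differ in length and hold other genes, and no difference between them was tested.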
